A study of Mus musculus with 15 samples.

Results

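The hearts of wild-type mice with chronic kidney disease (CKD) were compared with those of sham-operated wild-type mice, which are 6 of the 15 libraries of the series, 3 in each group and chosen by their labels alone. All animals were male C57BL/6J mice that were 6 to 8 weeks old at the start, and all hearts were taken 18 weeks after surgery. WTCKD mice had lost most of their kidney tissue in a 5/6 nephrectomy done in 2 steps, and received an empty AAV9 vector through the tail vein in week 2. WTSHAM mice were operated on without removal of kidney tissue, and their labels name no vector, so the effects of kidney loss and of the vector cannot be told apart. The other 9 libraries came from nephrectomised mice as well, namely wild-type mice given a virus that expresses renalase (RNLS) from a cardiomyocyte promoter (WTCKD + RNLS) and RNLS knockout mice given the empty vector (KOCKD) or that virus (KOCKD + RNLS). They entered the model to estimate the spread, and their levels are given beside some results. No source used here ties a library to a cage, an operation day or a sequencing run, and p-values measure the spread between these samples only.

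Messenger RNA from heart tissue was sequenced, and the table of counts held between 10480788 and 13107066 reads per library over 17447 genes in these 6 hearts. Levels are given as CPM, the counts relative to the scaled library size. Of these genes, 12764 had 10 or more counts in 3 or more of the 6 libraries and were tested. All 10 cardiomyocyte markers passed this filter, and Myh6, the main myosin of the adult mouse heart, was at 33299 CPM or more in every heart. The libraries were not alike within groups. On the leading principal component, with 36.1% of the variance, WTSHAM 1 and WTCKD 3 stood apart from the other 4, and these 2 had the lowest levels of the atrial myosin Myl7, at 12.8 and 1.28 CPM against 77.6 to 478 CPM. The next component, with 28.9% of the variance, separated the groups.

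CKD burdens the heart with pressure, volume and uremic toxins, and hearts in CKD are known for hypertrophy and fibrosis. Interferons are the cytokines of antiviral defence. Type I interferons act through the receptor chains IFNAR1 and IFNAR2 on transcription factors that bind interferon response elements, whereas interferon gamma acts through IFNGR1 and IFNGR2 on factors that bind gamma-activated sequences. Both switch on large and partly shared sets of genes that also have a low level of activity in healthy tissue.

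At an adjusted p under 0.05 (edgeR quasi-likelihood test, Benjamini-Hochberg over all tested genes), 301 genes differed between WTCKD and WTSHAM, 2.36% of those tested. Of these, 221 fell in WTCKD, 1.73% of those tested, and 80 rose, 0.627% of those tested. At the looser threshold of the study, a minimum FC with an unadjusted p, there were 1445 DEGs, 979 lower and 466 higher. At an unadjusted p under 0.05 alone, 10.3% of the tested genes were lower and 7.47% higher. Counts at this threshold in the gene lists below stand against these shares. All values of one group lay below those of the other for 12.3% of the genes in the lower direction and 10.4% in the higher, and this held for 299 of the 301. The number of genes that passed rested in part on single hearts, with 192 without WTSHAM 2, 136 without WTCKD 1, 178 without WTCKD 2, 145 without WTCKD 3 and 109 when only the 6 libraries were fitted. Of the 80 called genes named in the text, 43 were called in each of the 6 fits without 1 heart. The falls were larger than the rises. Their median log2 fold change was -0.96 against 0.56 for the rises, and 103 of the 221 fell more than 2-fold while 9 of the 80 rose more than 2-fold. Of the 50 genes with the smallest p, 45 fell. The median over all tested genes was -0.005, and since the scaling centres most genes near 0, folds are relative to that centre. In RNA from heart tissue, fewer cells of a type and less RNA per cell cannot be told apart.

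**Figure D1:**
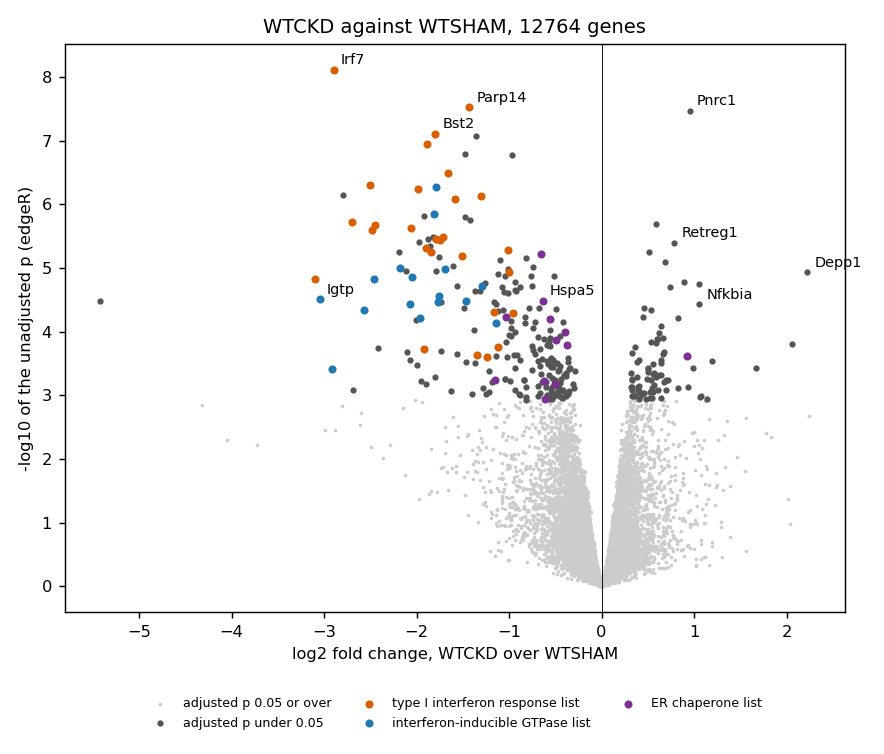
Each point is 1 of the 12764 genes, with the log2 fold change of WTCKD over WTSHAM on the x axis and -log10 of the unadjusted p of edgeR on the y axis. Coloured points mark members of 3 lists with an adjusted p under 0.05, and the interferon lists lie on the left, with Irf7 at -2.89, whereas Pnrc1 has the smallest p among the rises.

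Interferon-inducible genes made up a large part of the falls. Of the 30 tested members of a list of type I interferon response genes, 28 fell and none rose, with a list median of -1.73 on the log2 scale. All 16 tested interferon-inducible GTPases fell, with a median of -1.89. Together with the genes of MHC class I antigen processing, of which 7 of 23 fell, these lists accounted for 51 of the 221 falls. The regulatory sequence of 4 of the genes is shown here because it carries the letters that interferon-activated factors are known to bind. The sequences are the 250 bases before the start of the gene, from RefSeq for GRCm38.p6, and run 5′ to 3′ on the strand of the gene. Capitals mark interferon response elements, searched on both strands as GAAA, any 2 bases and GAAA, and gamma-activated sequences, searched as TTC, any 3 bases and GAA, which reads alike on both strands. Overlapping matches are joined.
Isg15 (chr4:156200819-156201068, minus strand): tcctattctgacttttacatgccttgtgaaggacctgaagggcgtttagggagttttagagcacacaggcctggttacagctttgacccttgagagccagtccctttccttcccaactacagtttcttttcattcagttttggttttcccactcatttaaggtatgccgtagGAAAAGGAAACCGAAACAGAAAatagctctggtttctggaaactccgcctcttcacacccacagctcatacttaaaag
Ifit1 (chr19:34640639-34640888, plus strand): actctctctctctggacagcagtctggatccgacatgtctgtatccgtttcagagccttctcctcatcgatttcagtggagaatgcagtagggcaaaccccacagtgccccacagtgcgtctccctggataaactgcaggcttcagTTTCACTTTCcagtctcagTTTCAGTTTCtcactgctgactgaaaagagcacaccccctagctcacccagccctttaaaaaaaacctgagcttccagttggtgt
Igtp (chr11:58199306-58199555, plus strand): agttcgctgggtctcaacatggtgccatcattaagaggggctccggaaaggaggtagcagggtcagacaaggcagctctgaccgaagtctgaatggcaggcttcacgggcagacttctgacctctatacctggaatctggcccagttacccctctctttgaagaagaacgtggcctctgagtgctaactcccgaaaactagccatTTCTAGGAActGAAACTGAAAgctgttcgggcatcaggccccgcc
Irgm2 (chr11:58214727-58214976, plus strand): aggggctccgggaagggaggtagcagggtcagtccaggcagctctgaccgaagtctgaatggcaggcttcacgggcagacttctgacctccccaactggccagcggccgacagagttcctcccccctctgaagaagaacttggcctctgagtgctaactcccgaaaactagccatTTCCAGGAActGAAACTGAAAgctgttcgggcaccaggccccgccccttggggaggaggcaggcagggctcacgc
Isg15 held 3 overlapping response elements and Ifit1 held 2, both within 104 bases of the start. Igtp and Irgm2 held 1 element of each kind, next to each other. Irf7 held neither pattern in this window.

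Over all genes, such elements were less frequent. A RefSeq promoter was found for 167 of the 221 genes that fell, and 34 of these (20.4%) held an interferon response element, against 3 of 66 (4.55%) among the genes that rose and 329 of 10180 (3.23%) among all tested genes with a promoter. Among all 32851 promoters in the reference, 2.98% held one. Among the list members that fell, the pattern was found in 9 of 10 matched GTPase genes and in 9 of 21 matched type I genes. Gamma-activated sequences were found in 6 of the 10 GTPase genes, in 11.4% of the matched genes that fell, in 13.6% of those that rose and in 7.21% of all tested genes (7.02% of all promoters in the reference). These are matches of letters and not measured binding, and no test was made on them.

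By role, the chain begins with the ligands. Ifng was not tested, with at most 4 counts in any of the 6 libraries, and 7 other interferon genes that were looked for were not analysed here. The receptors were expressed and did not pass the test. Ifnar1 was at 28.6, 33.2 and 34.3 CPM in WTSHAM and at 31.5, 35.5 and 31.1 CPM in WTCKD, with a log2 fold change of 0.03 ± 0.11 (SE). Ifngr1, Ifngr2, Ifnar2 and the kinases Jak1 and Tyk2 had log2 fold changes between -0.04 and 0.27 and also did not pass. Of the 11 tested genes in this group of ligands, receptors, kinases and Socs inhibitors, which was put together after values had been seen, none passed with edgeR and 3 had an unadjusted p under 0.05. DESeq2 called 2 of them higher on 15 libraries and 0 on 6 libraries. In 3 of the 11 all WTCKD values lay above all WTSHAM values, against 10.4% of all tested genes.

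Several transcription factors downstream of the receptors fell. Irf7, the factor that amplifies type I interferon production, was at 113, 180 and 81.2 CPM in WTSHAM and at 18.1, 16.5 and 15.6 CPM in WTCKD. The groups were far apart, and the log2 fold change was -2.89 ± 0.26 (SE) with the smallest p of all genes (adjusted p = 9.85e-05, edgeR). Stat2 (-1.88 ± 0.21) and Irf9 (-1.66 ± 0.20), which act together in the type I response, fell too, and so did Irf1 (-1.24, adjusted p = 0.0204), whereas Irf8 (-0.13, adjusted p = 0.871) did not pass. Irf1 was called in 3 of the 6 fits without 1 heart, those without a sham heart.

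The antiviral effectors followed. Isg15, a ubiquitin-like modifier, was at 29.2, 27.7 and 11.9 CPM in WTSHAM and at 3.80, 4.50 and 4.0 CPM in WTCKD (-2.48 ± 0.35). Ifit1, whose product binds foreign RNA caps, was at 49.7, 82.4 and 33.7 CPM in WTSHAM and at 11, 11.6 and 7.82 CPM in WTCKD (-2.45 ± 0.34). In both genes WTSHAM 3 was the lowest sham heart and still above every WTCKD heart. Ifit3 (-2.50), its near copy Ifit3b (-2.80), Bst2, which tethers virus particles to the cell (-1.80), and Parp14, a mono-ADP-ribosyltransferase (-1.43), fell as well. Reads of Ifit3 and Ifit3b may be shared between them. Oas3, a synthase that activates RNase L, had a log2 fold change of -3.10 at 2.72 to 6.17 CPM in WTSHAM and 0.43 to 0.64 CPM in WTCKD. Ifi27 (-1.16, adjusted p = 0.081) did not pass.

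Sensors of foreign nucleic acids were examined in a list written after values had been seen. Of 14 tested, 7 fell and none rose, with a median of -0.72. Those that fell were Zbp1 (-2.70), the RNA sensors Ifih1 (-1.30), Ddx58 (-1.0) and Dhx58 (-1.35), the kinase Eif2ak2 (-1.36), the RNA editor Adar (-0.97) and the nucleotide hydrolase Samhd1 (-0.54). Zbp1, a sensor of left-handed nucleic acids that can start cell death, was at 16.9, 17.4 and 6.69 CPM in WTSHAM and at 2.37, 2.30 and 1.62 CPM in WTCKD. The adaptors Mavs (-0.01) and Sting1 (0.10) and the DNA sensor Cgas (-0.60) did not pass. Dhx58 and Samhd1 were each called in 2 of the 6 fits without 1 heart, those without WTSHAM 1 or WTSHAM 3.

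The GTPases, which attack vacuoles that hold parasites or bacteria, varied several-fold among sham hearts. Igtp was at 44.9, 409 and 170 CPM in WTSHAM and at 26.6, 26.5 and 22.5 CPM in WTCKD, with a log2 fold change of -3.05 ± 0.53 (adjusted p = 0.00508, edgeR). Irgm2 was at 68.6, 372 and 200 CPM against 44.8, 41.1 and 30.3 CPM (-2.46 ± 0.40). Iigp1 was at 99.5, 689 and 328 CPM against 66.6, 69.7 and 52.6 CPM (-2.56 ± 0.46). In all of these WTSHAM 2 was the highest and WTSHAM 1 lay nearest to WTCKD. The groups did not overlap, as the rule for naming these genes required. Without WTSHAM 2 the log2 fold changes were smaller, at -2.10 for Igtp, -1.80 for Irgm2 and -1.77 for Iigp1. The guanylate-binding proteins Gbp3 (-1.79), Gbp5 (-1.70), Gbp7 (-1.81) and Gbp10 (-2.91) and the GTPase Tgtp1 (-2.18) also fell. With only the 6 libraries fitted, Igtp, Irgm2, Iigp1, Gbp5 and Tgtp1 did not pass with edgeR. Gbp10 was at -2.16 without WTSHAM 2 and was called in 2 of the 6 fits without 1 heart. Tgtp1 has a near-identical neighbour, Tgtp2, so the share of reads of each is uncertain. The gene model F830016B08Rik, outside the rule for naming genes and named after its values were seen, had the largest fall of all called genes, at 11.6, 453 and 313 CPM in WTSHAM and at 8.62, 4.59 and 4.85 CPM in WTCKD (-5.42 ± 0.95, and -4.75 without WTSHAM 2). F830016B08Rik did not pass either with only the 6 libraries fitted.

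**Figure D2:**
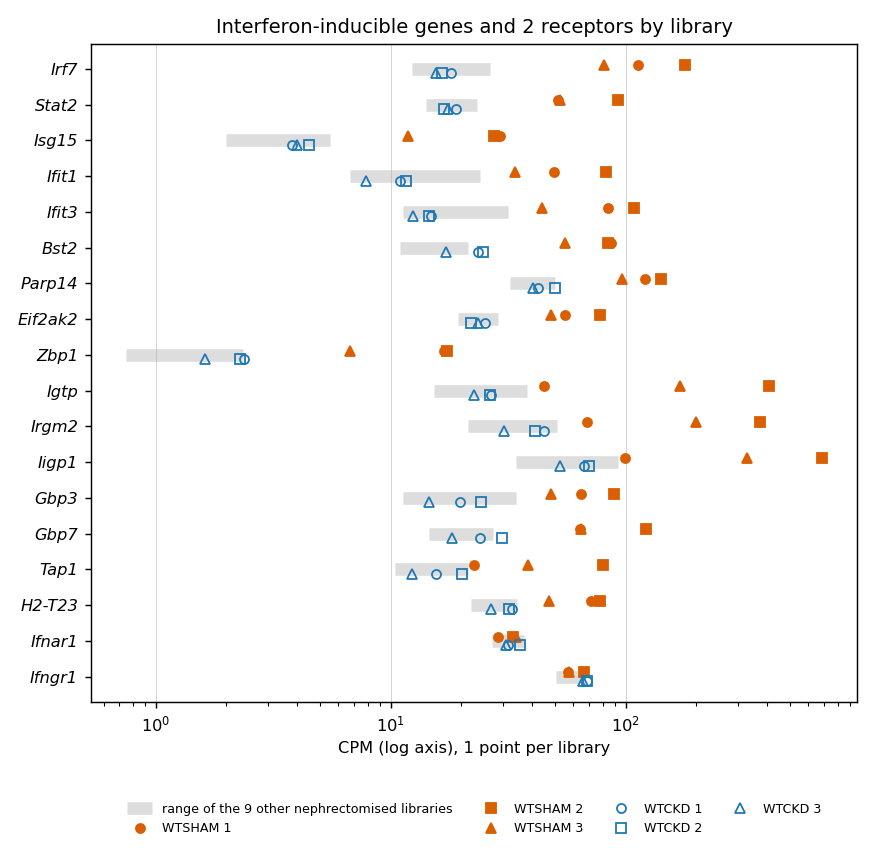
Levels in CPM on a log axis for 16 interferon-inducible genes and the receptors Ifnar1 and Ifngr1, with 1 point per library, filled for WTSHAM and open for WTCKD, and a grey bar for the range of the 9 other nephrectomised libraries. As in 299 of the 301 called genes, the groups are apart for the 16 inducible genes, with WTSHAM points to the right of all WTCKD points. The points of the groups mix for both receptors.

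MHC class I genes were lower to a smaller extent. All 23 tested members had a negative log2 fold change, with a median of -0.57, and 7 fell. Tap1, a chain of the peptide transporter, was at 22.7, 80.4 and 38.4 CPM in WTSHAM and at 15.6, 20.2 and 12.3 CPM in WTCKD (-1.56 ± 0.33, adjusted p = 0.0192), and its log2 fold change was -0.93 without WTSHAM 2. The non-classical molecule H2-T23 (-1.10 ± 0.17), the immunoproteasome subunits Psmb8 (-1.02) and Psmb9 (-0.95), the peptide trimming enzyme Erap1 (-0.41), the chaperone Calr (-0.39) and Nlrc5, the activator of class I genes (-1.40), fell too. The classical molecules H2-K1 (-0.78, adjusted p = 0.109) and H2-D1 (-0.63, adjusted p = 0.0613) and the light chain B2m (-0.65, adjusted p = 0.0998) did not pass. The number of members that fell rested on single libraries, with 1 without WTCKD 1 or WTCKD 3, 2 without WTSHAM 2, 4 without WTSHAM 3 or WTCKD 2 and 13 without WTSHAM 1. Of these 6 fits, 3 called Tap1 and Psmb8, 2 called Nlrc5 and 1 called Psmb9 and Erap1. None of the 9 tested MHC class II genes passed with edgeR (median -0.35), with 1 at an unadjusted p under 0.05.

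Other families that interferons induce were looked up after values had been seen. Of 7 tested Schlafen genes, which restrain growth and viruses, 4 fell, with Slfn8 at -1.82. Of 11 tested genes of the HIN-200 family of DNA-binding proteins, 6 fell, with Ifi213 at -2.19. Of 45 tested Trim genes, most of which encode ubiquitin ligases, 11 fell and none rose with edgeR, while DESeq2 called 1 higher, and the median of the family was -0.14. The count was 6 without WTCKD 1 and 7 without WTSHAM 2 or WTCKD 3. Trim21, the intracellular antibody receptor, fell by 1.47 on the log2 scale, and Trim25, which modifies an RNA sensor, fell by 0.64 and was called in 3 of the 6 fits without 1 heart. Csf1, the growth factor of macrophages (-0.77), the ligand Cd274 of the PD-1 receptor (-1.74) and the sialic acid receptor Siglec1 of macrophages (-1.88) fell as well.

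The sham hearts differed in which interferon genes were high. Among the 16 GTPases WTSHAM 2 had the highest of the sham values in 16, and WTSHAM 1 had the lowest in 9 and WTSHAM 3 in 7. Among the 30 type I response genes WTSHAM 2 was highest in 22 and WTSHAM 1 in 8, whereas WTSHAM 3 was lowest in 22. Summed over the GTPase list, the level was 777, 2781 and 1353 CPM in WTSHAM against 292 to 429 CPM in WTCKD. Summed over the type I list, it was 1673, 2540 and 1442 CPM against 557 to 644 CPM. So the order of WTSHAM 1 and WTSHAM 3 was turned between the lists, while every sham heart was above every WTCKD heart in both sums.

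The count of falls in these lists did not rest on 1 heart. Without each of the 6 libraries in turn, 15 or 16 of the 16 GTPases and 24 to 29 of the 30 type I genes fell. When only the 6 libraries were fitted, 5 GTPases and 22 type I genes fell with edgeR, and 16 and 27 with DESeq2. The other nephrectomised hearts can only be set against the same 3 sham hearts. Their sums were 292 to 427 CPM for the GTPases and 491 to 692 CPM for the type I list, within or near the range of WTCKD. In 15 of the 16 GTPases and 26 of the 30 type I genes, all 12 nephrectomised hearts lay below all 3 sham hearts. This held for 2.72% of all tested genes and for 138 of the 221 genes that fell. The genes that fell were picked out by the same sham and WTCKD hearts, so these counts are not an independent check. All 12 nephrectomised hearts share both the operation and a vector or virus.

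Levels of immune cell markers were examined beside these genes. Of 14 macrophage markers, 13 had a negative log2 fold change, with a median of -0.42. In 7 of them the unadjusted p was under 0.05, all lower, against 10.3% of all tested genes, 7 did not overlap between the groups, against 12.3%, and 1 fell. This was Fcgr1, an antibody receptor that is itself induced by interferons (-1.76, adjusted p = 0.00213). The markers Adgre1 (-0.33), Csf1r (-0.26) and Cd68 (-0.43) did not pass, and the summed level of the list was 635 to 803 CPM in WTSHAM and 475 to 642 CPM in WTCKD. In KOCKD against WTSHAM, which shares the sham hearts, 12 of the 14 were called lower, against 8.51% of all tested genes. The median of the list was -0.86 there, and the sum was 332 to 507 CPM over the 9 other nephrectomised hearts. Lymphocytes were scarce, with 2.50 to 6.62 CPM summed over 11 T and NK cell markers in WTSHAM and 2.47 to 5.42 CPM in WTCKD, and no marker of the list was at 0 in all 6 libraries. The part of such cells in the fall of the interferon genes was not tested. Of 19 tested complement genes, 2 fell, namely the receptor C3ar1 (-1.06) and properdin, Cfp (-0.59), with a list median of -0.41. Cfp was called in 3 of the 6 fits without 1 heart. Chemokines and their receptors had 0 of 20 past the threshold with edgeR, and 8 with an unadjusted p under 0.05. Cxcl10, an interferon-inducible chemokine, was at 3.42, 4.81 and 0.81 CPM in WTSHAM and at 0.59, 0.92 and 0.51 CPM in WTCKD (-2.15, adjusted p = 0.0573).

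Chaperones of the endoplasmic reticulum (ER), which fold secreted and membrane proteins, formed another group of falls. The list was written after values had been seen. Of 28 tested members, 11 fell and 1 rose, and the median was -0.31. Hspa5, the main ER chaperone and sensor of unfolded protein, was at 727, 670 and 979 CPM in WTSHAM and at 484, 516 and 530 CPM in WTCKD (-0.64 ± 0.11, adjusted p = 0.00532, edgeR). Manf, a secreted stress protein, was at 48.3, 39.8 and 76.4 CPM against 26.4, 27.8 and 26.2 CPM (-1.03 ± 0.19). The groups did not overlap in either gene, and WTSHAM 3 was the highest in both. The disulfide isomerases Pdia4 (-0.66 ± 0.10) and Pdia6 (-0.55 ± 0.10), the chaperones Hsp90b1 (-0.50), Hyou1 (-0.62) and Sdf2l1 (-1.15) and the stress factor Ddit3 (-0.63) fell too. Serpinh1, the collagen chaperone (-0.52), and P4ha2, which hydroxylates procollagen (-0.58), were the 2 of 17 collagen processing genes that fell. Chac1, a glutathione-degrading enzyme of the stress response, was the member that rose (0.93 ± 0.20). The regulators Atf4 (-0.02), Atf6 (-0.02) and Xbp1 (-0.33) did not pass. The count of falls was 3 without WTCKD 3, 4 without WTCKD 1, 5 without WTSHAM 3 and 1 when only the 6 libraries were fitted. Of the 6 fits without 1 heart, 5 called Pdia6, 3 called Calr and Chac1, 2 called Hsp90b1, Hyou1, Sdf2l1 and P4ha2, and 1 called Ddit3 and Serpinh1. The promoter of Hspa5 is shown for the ER stress element, searched on both strands as CCAAT, any 9 bases and CCACG and marked in capitals.
Hspa5 (chr2:34771840-34772089, plus strand): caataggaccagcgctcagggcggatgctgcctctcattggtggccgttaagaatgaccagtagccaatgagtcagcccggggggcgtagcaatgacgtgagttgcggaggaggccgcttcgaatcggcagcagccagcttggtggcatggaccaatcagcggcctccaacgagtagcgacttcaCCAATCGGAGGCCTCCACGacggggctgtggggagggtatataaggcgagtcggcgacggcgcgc
This pattern was found in 4 of the 9 chaperone genes that fell and had a promoter in the reference, in 0.147% of the tested genes and in 0.113% of all promoters in the reference.

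Fewer genes rose, and their changes were smaller. The number of rises was 121 without WTSHAM 1, 35 without WTSHAM 2, 47 without WTSHAM 3 and 28, 42 and 27 without WTCKD 1, 2 and 3. Depp1, a target of FoxO factors that is linked to autophagy, was at 42.8, 15.2 and 40.4 CPM in WTSHAM and at 170, 165 and 124 CPM in WTCKD. The groups did not overlap, as the rule for naming this gene required. Its log2 fold change of 2.22 ± 0.35 (adjusted p = 0.00285, edgeR) was the largest among named rises. Pnrc1, a nuclear receptor coactivator, was at 73.1, 67.7 and 78.6 CPM in WTSHAM and at 155, 124 and 146 CPM in WTCKD, and had the smallest p among the rises (0.95 ± 0.10, adjusted p = 0.000144). Txnip, an inhibitor of thioredoxin and of glucose uptake, was at 415, 797 and 477 CPM against 861, 1097 and 1390 CPM (0.99 ± 0.22). Here WTSHAM 2 came close to WTCKD 1, and Txnip was called in 2 of the 6 fits without 1 heart, those without WTSHAM 2 or WTCKD 1.

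Signalling genes were among the rises. Nfkbia, the inhibitor of NF-kB, was at 36.9, 32.9 and 30.8 CPM in WTSHAM and at 58.8, 85.2 and 65.4 CPM in WTCKD (1.06 ± 0.19, adjusted p = 0.00553). Sgk1, a kinase that mineralocorticoids and glucocorticoids induce, was at 105, 52.0 and 69.2 CPM against 133, 191 and 152 CPM (1.07 ± 0.27, adjusted p = 0.0462). WTSHAM 1 was the sham heart nearest to WTCKD for Sgk1, and the gene was called in 1 of the 6 fits that left out a heart, the one without WTSHAM 1. S1pr1, the endothelial sphingosine phosphate receptor (0.90 ± 0.15), Tnip1, a partner of the NF-kB inhibitor A20 (0.39), and Tgfb1, a profibrotic cytokine (0.54 ± 0.11), rose as well. Tnip1 was called in 1 of those fits, the one without WTSHAM 2, and Tgfb1 in 4. The inflammation and NF-kB list had Nfkbia as its only riser among 20 tested, and no member fell. In a list of NF-kB feedback genes written after values had been seen, 4 of 12 rose and none fell. The list median was 0.03, and 5 of the 12 had a negative log2 fold change.

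The remaining large rises were found in genes at low levels. The glutamate receptor subunits Grin2c (1.67) and Grin2d (1.14), Clba1, which binds clathrin (1.19), the glutathione transferase Gstm6 (1.06) and Nat8l, which makes N-acetylaspartate (0.94), were each below 8 CPM in all 6 hearts. Lrrc4b, a synaptic adhesion gene, was higher at 20.9, 19.5 and 24.8 CPM in WTSHAM and 39.0, 36.9 and 59.2 CPM in WTCKD (1.05 ± 0.17). Gstm6 belongs to a family of similar genes between which reads can be divided, and neither it nor Nat8l was called in any of the 6 fits without 1 heart. Grin2d was called in 1 of them, Grin2c in 2 and Clba1 in 4.

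**Figure D3:**
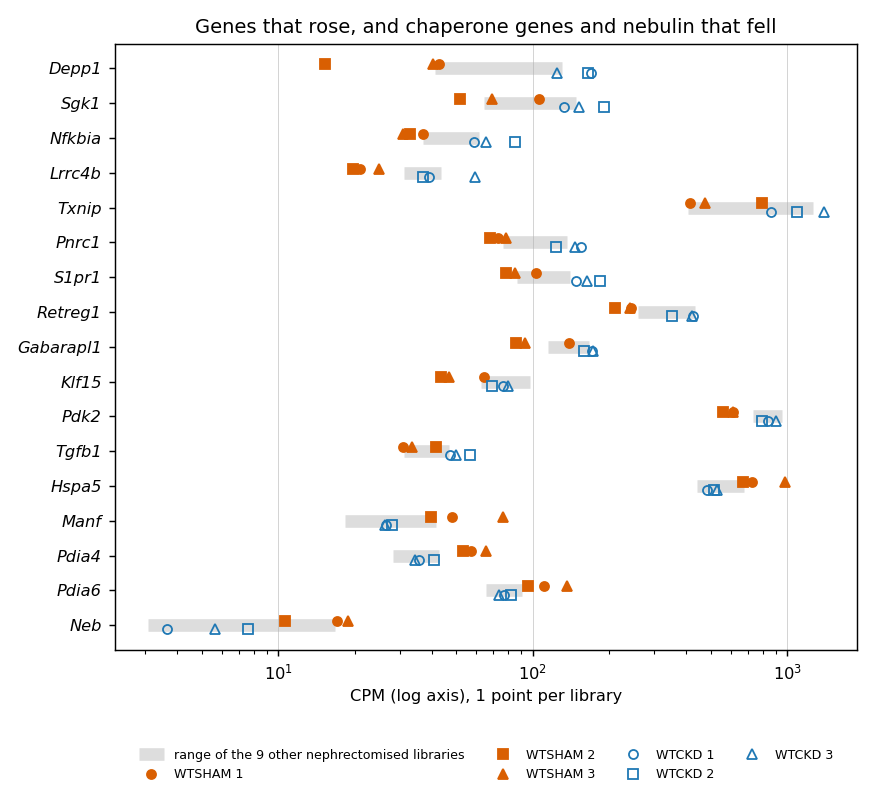
Levels in CPM on a log axis for 12 genes that rose and 5 genes that fell in WTCKD, with 1 point per library, filled for WTSHAM and open for WTCKD, and a grey bar for the range of the 9 other nephrectomised libraries. The groups do not overlap in any of the 17 genes, as in 299 of the 301 genes that passed the test. For Depp1 the grey bar runs from 41.2 to 130 CPM, from the highest WTSHAM points to the lowest WTCKD point.

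FoxO factors drive protein breakdown and autophagy in muscle. Of 19 tested FoxO and atrophy genes, 3 rose and none fell, with a median of 0.19. They were Gabarapl1, which acts in autophagosome formation (0.66 ± 0.14), Fbxo32, the muscle ubiquitin ligase atrogin-1 (0.38 ± 0.09), and Klf15 (0.55 ± 0.14), a factor that also belongs to the glucocorticoid list. In the 6 fits without 1 heart, 0 to 2 genes of the list rose, with Gabarapl1 and Fbxo32 called in 2 of the fits and Klf15 in 1. Trim63 (0.38, adjusted p = 0.064) and Ddit4 (1.35, adjusted p = 0.0725) did not pass. Retreg1, a receptor for autophagy of the ER, rose by 0.78 ± 0.11 from 244, 210 and 241 CPM to 424, 352 and 421 CPM, and it was named after its values were seen. In the glucocorticoid list, 3 of 17 rose (Nfkbia, Sgk1 and Klf15), whereas Fkbp5 (-0.46), Tsc22d3 (0.15) and Zbtb16 (-1.06), which also respond to glucocorticoids, did not pass. In the fits without 1 heart, 1 to 5 of the list rose, and 1 member was called lower without WTSHAM 2 and without WTSHAM 3. WTSHAM 1 had the highest sham value in 16 of these 17 genes, with Fkbp5 at 43.4 CPM against 15.7 and 14 CPM in the other sham hearts. A forkhead site, which FoxO factors bind, was searched as GTAAACA on both strands. It was found in 3 of the 66 matched genes that rose (4.55%) and in 7 of the 167 that fell (4.19%). It was also found in 2.77% of the tested genes and in 3.17% of all promoters in the reference. The promoter of Depp1, described above as a target of FoxO factors, did not hold this pattern, and nor did that of Pnrc1.

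In energy metabolism, none of the 31 tested respiratory chain genes passed with edgeR (median 0.10), with 1 at an unadjusted p under 0.05. None of the 25 genes of fatty acid uptake and oxidation passed with edgeR either (median -0.16). Of these 25, 7 had an unadjusted p under 0.05, all lower, against 10.3% of all tested genes in that direction. Pdk2, a kinase that inhibits pyruvate dehydrogenase, rose from 611, 560 and 611 CPM to 841, 799 and 904 CPM (0.51 ± 0.08, adjusted p = 0.00195). Gapdh, an enzyme of glycolysis that is often used as a reference gene, rose by 0.56 ± 0.13, from 216 to 233 CPM in WTSHAM to 301 to 354 CPM in WTCKD. Fdft1 of sterol synthesis (0.40) and Fth1, the ferritin heavy chain (0.33), were the only members of the sterol and iron lists past the threshold, and Fth1 was not called in any fit that left out a heart. Gapdh was called in 1 of these 6 fits, the one without WTSHAM 1, and so was Fdft1. None of 40 ribosomal protein genes passed with edgeR (median 0.13), with 3 at an unadjusted p under 0.05.

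The genes most often used as markers of hypertrophy did not pass the test. Nppa, the atrial natriuretic peptide, was at 119, 240 and 408 CPM in WTSHAM and at 363, 1173 and 80.6 CPM in WTCKD (1.08 ± 0.78, adjusted p = 0.515, edgeR). Its lowest values in each group came from WTSHAM 1 and WTCKD 3, the hearts with the least Myl7, and the part of atrial tissue in its level was not tested. Nppb, the B-type natriuretic peptide, was at 187, 98.2 and 127 CPM against 150, 163 and 110 CPM (0.04 ± 0.26). Neither gene separated the groups.

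The myosins and actins varied within WTSHAM. Myh7, the fetal beta myosin, was at 853, 184 and 169 CPM in WTSHAM and at 258, 380 and 222 CPM in WTCKD (-0.49 ± 0.67), and Acta1, skeletal actin, was at 1739, 787 and 459 CPM against 465, 592 and 520 CPM (-0.92 ± 0.61). WTSHAM 1 was the highest heart for both, and without it Myh7 had a log2 fold change of 0.70. Myh6 had a log2 fold change of -0.10 ± 0.08. The ratio of Myh7 to Myh6 in FPKM was 2.21%, 0.511% and 0.408% in WTSHAM and 0.759%, 1.13% and 0.544% in WTCKD. The means were 1.04% ± 1.01 (SD, n = 3) and 0.812% ± 0.298 (SD, n = 3), with p = 1 in a two-sided exact permutation test that cannot give less than 0.1 at this size. None of the 18 tested genes of the hypertrophy list passed with edgeR, with 3 at an unadjusted p under 0.05. In the sarcomere list Neb, which encodes nebulin, a giant protein of thin filaments, was the gene that fell among 25 tested, from 17.0, 10.6 and 18.7 CPM to 3.64, 7.62 and 5.61 CPM (-1.46 ± 0.32, adjusted p = 0.0223). It was called in 3 of the 6 fits without 1 heart, those without WTSHAM 1, WTSHAM 2 or WTCKD 2.

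Among matrix genes, no collagen chain passed the test. Col1a1, the main chain of type I collagen, was at 112, 253 and 177 CPM in WTSHAM and at 121, 166 and 124 CPM in WTCKD (-0.40 ± 0.25, adjusted p = 0.449). Col1a2 (-0.65 ± 0.18, adjusted p = 0.0707) and Col3a1 (-0.29 ± 0.23, adjusted p = 0.56) did not pass either, and nor did Postn, a marker of activated fibroblasts (-0.21), or Acta2, smooth muscle actin (-0.34). Of 30 tested collagen chains, 27 had a negative log2 fold change and none passed with edgeR. An unadjusted p under 0.05 was found for 8, all lower, against 10.3% of all tested genes in that direction. The median was -0.34. WTSHAM 1 had the lowest sham value in 26 of these 30 chains and WTSHAM 2 the highest in 24. Itga1, a collagen-binding integrin, was the integrin or laminin gene that fell among 23 tested (-0.46), and it was called in 1 of the 6 fits without 1 heart. Fibroblast markers had a median of -0.15, with 0 of 10 past the threshold and 1 at an unadjusted p under 0.05 with edgeR.

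**Figure D4:**
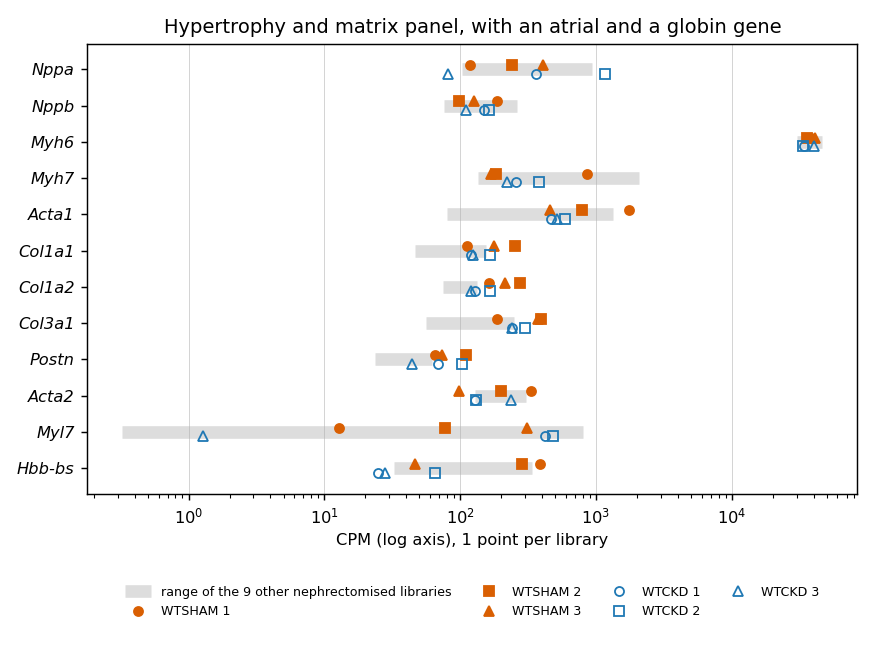
Levels in CPM on a log axis for 10 genes used as markers of hypertrophy and matrix, with the atrial gene Myl7 and the globin gene Hbb-bs, with 1 point per library, filled for WTSHAM and open for WTCKD, and a grey bar for the range of the 9 other nephrectomised libraries. WTSHAM and WTCKD points overlap for all 10 marker genes, and Myl7 spans from 1.28 to 478 CPM over the 6 hearts.

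Globin genes varied with the heart. Hbb-bs was at 389, 284 and 46.3 CPM in WTSHAM and at 24.8, 65.1 and 27.9 CPM in WTCKD (-2.61 ± 0.74, adjusted p = 0.0785), so that WTSHAM 3 lay among the WTCKD hearts. None of the 5 tested erythrocyte genes passed with edgeR, while all 5 had an unadjusted p under 0.05. The core clock list had a median of 0.03. Arntl, the activator of the clock, was at 7.67, 21.4 and 32.6 CPM in WTSHAM and at 30.5, 30.8 and 34.0 CPM in WTCKD, with WTSHAM 1 alone at the low end. WTSHAM 1 was also the heart with the highest Hspa1a, an inducible heat shock gene, at 82.4 CPM against 1.35 to 2.66 CPM in the other 5. Without WTSHAM 1, 392 genes passed in place of 301.

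**Figure D5:**
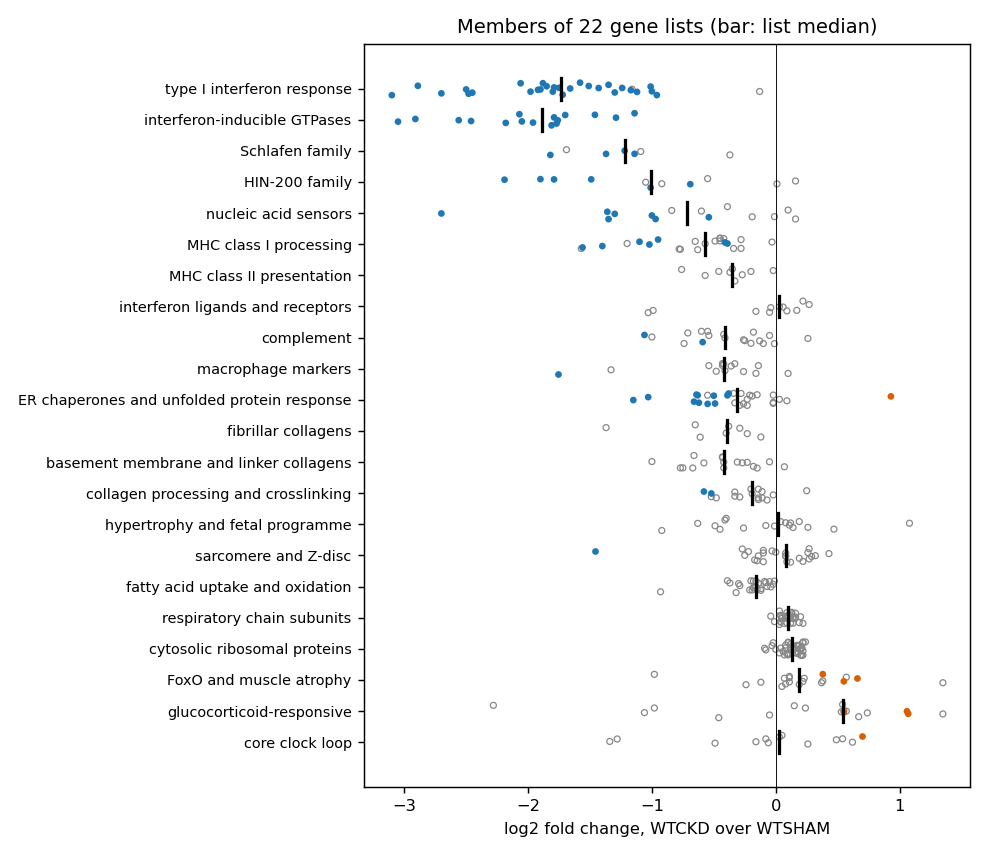
The log2 fold change of WTCKD over WTSHAM for the tested members of 22 gene lists, 1 point per gene, filled where the adjusted p is under 0.05 and open otherwise, with a black bar at the list median. The type I interferon response and GTPase lists lie to the left, with medians of -1.73 and -1.89, while the hypertrophy and respiratory chain lists have medians of 0.02 and 0.10. The fibrillar collagen list and the basement membrane and linker collagen list have medians of -0.39 and -0.42 with no filled point. The collagen processing list has a median of -0.19 with 2 filled points.

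Between KOCKD and WTCKD no gene passed with edgeR, with 1302 at an unadjusted p under 0.05, and DESeq2 called 8. KOCKD against WTSHAM gave 1086 lower and 723 higher genes, 8.51% and 5.66% of those tested. Both comparisons share the sham hearts, so their values are only set side by side. Irf7 was at -2.89 in WTCKD and -3.0 in KOCKD, Igtp at -3.05 and -2.77, Depp1 at 2.22 and 1.55 and Pnrc1 at 0.95 and 0.84 on the log2 scale. For Hspa5 the values were -0.64 and -0.32 (adjusted p = 0.0636 in KOCKD), and for Nfkbia 1.06 and 0.51 (adjusted p = 0.0791).

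In WTCKD + RNLS against WTCKD, which share the WTCKD hearts with the main comparison, 303 genes were lower and 285 higher, 2.37% and 2.23% of those tested. None of the 16 GTPases and none of the 30 type I genes was among them, with Irf7 at -0.01 ± 0.27 and Igtp at 0.06 ± 0.53. The genes called in the main comparison were chosen on these same WTCKD hearts, which favours calls in the opposite direction here. Their counts therefore do not measure a reversal. Of the 221 genes that fell in WTCKD, 37 were called higher with the virus and none lower, with a median log2 fold change of 0.05. Of the 80 that rose, 18 were called lower and 2 higher, with a median of -0.16. Among the 18 were Depp1 (-1.49 ± 0.34), Pnrc1 (-0.87 ± 0.10) and Txnip (-1.26 ± 0.22). For Sgk1 the value was -0.67 ± 0.27 and did not pass (adjusted p = 0.166).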

How the data were processed

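RNA was sequenced from heart tissue with a stranded library kit, and the study's methods do not say whether whole hearts were used. The authors trimmed reads with Trimmomatic, used HISAT2 for alignment and HTSeq for gene counts, and these counts were taken as deposited. The deposited FPKM values, which the authors made with Cufflinks by their account, equalled counts over gene length and library total within 1% for 100% of values and served only for the Myh7 to Myh6 ratio. Versions and the strand setting of the counting are not given in the sources used here. The study's methods name mm9 and the submitters' processing notes GRCm39, so no coordinate was taken from the files, and sequences came from RefSeq for GRCm38.p6, matched by symbol.

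Genes with 10 or more counts in 3 or more of the 6 libraries were fitted in edgeR 4.0.16 (R 4.3.3) with TMM scaling, all 15 libraries, the group as the only term and the quasi-likelihood test, with Benjamini-Hochberg adjustment. The fit was tested on simulated data, where it recovered 168 of 200 changed genes with 8 false calls. The simulation gave each gene the same spread in all groups. It changed WTCKD only, in genes above a minimum mean count. Its false calls therefore do not measure the error for genes that vary more among sham hearts than in other groups. With 50 genes at each fold, 24 were recovered at 1.5-fold and 50 at 4-fold, so small changes were often missed. Alternatives were other filters and scaling, the 6 libraries alone, a replicate block, DESeq2 1.42.0, gene length offsets and leaving out each heart. No pair of replicates agreed within sampling noise (chi-square per degree of freedom 5.68 to 20.3).

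Members and lists were chosen with earlier results of these data known, and lists said in the text to be written after values had been seen were added last. Named genes were a panel of 10 markers, the 12 largest rises and falls that passed at an average log2 CPM over 1 without overlap, leaving out predicted gene models, and up to 4 genes a list by p where any passed, or else up to 2 by level. A further 47 named genes were chosen after their values were seen. Some genes are not reported here.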

Additional observations from a re-analysis of the deposited data

How the results depend on the processing

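Across 14 alternatives, 32 of the 80 named genes that passed did so in every one, and none of the 80 changed direction. In the 6 fits without 1 heart, 43 of the 80 were called every time and 3 (Fth1, Gstm6 and Nat8l) never. The 301 genes that passed (80 higher and 221 lower) became 109 (23 and 86) with only the 6 libraries fitted and 566 (202 and 364) with DESeq2 on 15 libraries. Without 1 heart the total ran from 136 to 392, the higher genes from 27 to 121 and the lower genes from 108 to 271. The GTPases that fell went from 16 to 5 and the MHC class I genes from 7 to 1 with only the 6 libraries, and the latter ran from 1 to 13 without 1 heart. For KOCKD against WTCKD, DESeq2 called 8 genes where edgeR called 0. The difference in the Myh7 to Myh6 ratio, WTCKD minus WTSHAM, was -0.23 percentage points and ran from -0.548 to 0.353 without 1 heart, the latter without WTSHAM 1.

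Some genes that did not pass changed direction when 1 heart was left out, and their log2 fold changes then ran over these ranges: Acta2 from -0.7 to 0.15, Atf4 from -0.13 to 0.2, Atf6 from -0.08 to 0.04, Fkbp5 from -0.74 to 0.24, Hspa1a from -4.28 to 0.24, Ifnar1 from -0.05 to 0.08, Irf8 from -0.32 to 0.29, Mavs from -0.11 to 0.13, Myh7 from -0.85 to 0.7, Nppa from -0.21 to 1.59, Nppb from -0.15 to 0.32, Postn from -0.55 to 0.06, Sting1 from -0.03 to 0.21, Tsc22d3 from -0.02 to 0.49 and Tyk2 from -0.12 to 0.01. With gene length offsets Atf6 was at 0.08 and Nppb at -0.02. The cause of these changes was not tested.

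With the replicate number as a block, 259 genes passed (59 higher and 200 lower). The deviations of hearts with the same number had correlations of -0.093, 0.252 and -0.262. Those of hearts with unlike numbers ran from -0.351 to 0.344. Deviations from a mean of 3 hearts depend on each other, so these values cannot decide whether the numbers pair the samples.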
